A study of Mus musculus with 6 samples.

Results

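The genes described here encode transcription factors of the AP-1 family, 10 of 21938 protein-coding genes that GENCODE places on the mouse chromosomes. They were chosen by name: *Fos*, *Fosb*, *Fosl1* and *Fosl2* of the Fos family, *Jun*, *Junb* and *Jund* of the Jun family, and *Atf3*, *Batf* and *Jdp2* of the related ATF, BATF and JDP branches. The measurement was the position of H3K56ac, histone H3 acetylated on lysine 56, in mouse embryonic stem cells (mESCs). Each gene was read with a window of its body and 30 kb on either side, using GENCODE release 21 of the mouse annotation on mm10. Of the 11106 H3K56ac peaks, 24 lay in these windows. A peak was found at the promoter of *Fos*, *Fosb*, *Jun*, *Junb*, *Jund*, *Atf3* and *Jdp2*, and none at the promoter of *Fosl1*, *Fosl2* or *Batf*.

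The cells were V6.5 mESCs kept undifferentiated on a layer of feeder cells in medium with LIF, the cytokine that sustains self-renewal. Lentivirus delivered either a scrambled shRNA (Scramble) or an shRNA against *Sirt6* (Sirt6KD), which encodes a deacetylase of H3K56, so that every library came from infected cells. From Scramble cells there were 2 libraries of H3K56ac ChIP DNA and 1 of input DNA, and from Sirt6KD cells the same numbers. The processed data analysed here were 1 set of peak positions, merged by the authors over libraries. The file carries a single score value throughout and no read counts, so a peak cannot be assigned to Scramble or Sirt6KD cells, and the depths of the single libraries were not used here. For the same reason no difference between the groups was tested, and the efficiency of the knockdown could not be checked. A gene without a peak had no region that passed the peak caller, which is not a measured level of zero.

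AP-1 is a dimer of basic leucine zipper (bZIP) proteins. Jun proteins pair with themselves or with Fos proteins, whereas Fos proteins need a partner, and the dimers bind the short sequence TGACTCA. Many of the genes are silent or low in resting cells and are transcribed within minutes of growth factor or stress signals, through kinases that act on factors already bound at their promoters. AP-1 is also among the factors that the study examined at an intronic enhancer of *Utrn*, the gene of the dystrophin relative utrophin. Acetylated H3K56 is known from promoters and enhancers in use.

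A promoter was called marked when at least 1 base of a peak lay within 1 kb of a transcription start site (TSS) of any transcript of the gene. This held for 7 of the 10 AP-1 genes, or 70.0% (Wilson 95% interval 39.7 to 89.2%, covering counting only), and for 35.7% of all protein-coding genes. The genes were chosen by name and not drawn at random, so the interval is no test against the share of all genes. With the peak midpoint required within 1 kb, the same count of 7 was read against 33.9% of all genes. A TSS lay inside a peak in 6 AP-1 genes and in 25.0% of all genes. A peak anywhere in the window was found for 8 AP-1 genes and for 56.8% of all genes, and *Fosl2* and *Batf* were the ones without. The windows held a median of 2 peaks, compared with 1 for all genes (quartiles 0 and 2) and 2 for genes with a marked promoter (quartiles 1 and 3). Per 100 kb of window the median was 2.48 peaks, compared with 0.876 for all genes.

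CpG-rich promoters carry the mark more often, so the AP-1 genes were also read against genes of their own class. The class was set by an observed to expected CpG ratio above 0.6 from 500 bp upstream to 500 bp downstream of the outermost 5′ end. By this measure 8 AP-1 promoters were CpG-rich, and 6 of them were marked, compared with 60.4% of all CpG-rich promoters. The marked ones were *Fos*, *Fosb*, *Jun*, *Junb*, *Jund* and *Jdp2*, with ratios from 0.724 for *Junb* to 0.882 for *Jund*. *Fosl2* had a ratio of 0.863 and *Fosl1* a ratio of 0.663, and neither was marked. At the outermost 5′ ends of *Atf3* and *Batf* the ratio was 0.248 and 0.340, and 14.7% of all genes in that class were marked at some TSS. *Batf* had no mark. *Atf3* was marked only at its inner TSS, where the ratio was 0.853 and 0.756, and its outermost end had no peak within 1 kb. In *Jdp2* the opposite held, since the TSS that its peak covered had a ratio of 0.449 and the outermost end, 622 bp from the peak, a ratio of 0.844. The median ratio of the AP-1 genes was 0.761, near that of marked genes in general (0.751) and above that of all genes (0.552).

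**Figure D1:**
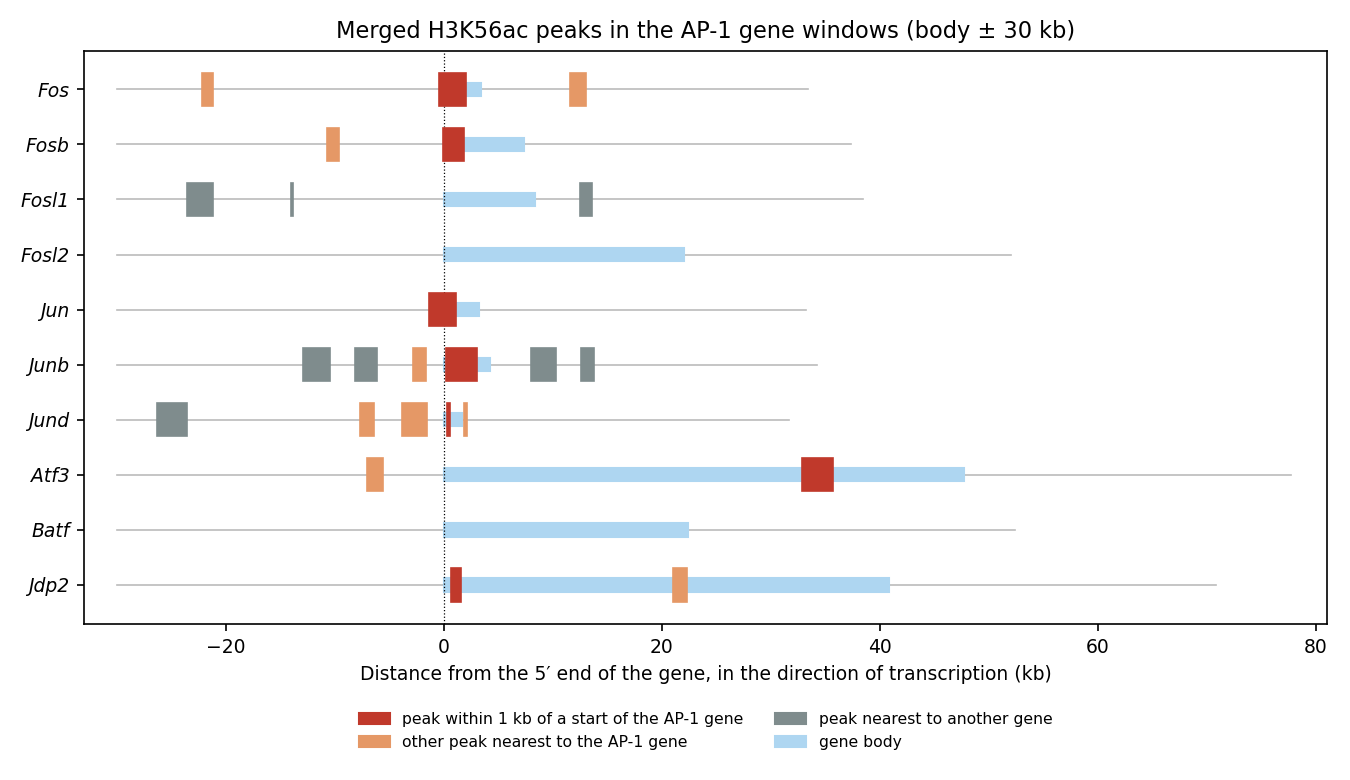
Merged H3K56ac peaks along the windows of the 10 AP-1 genes, drawn to scale by distance from the 5′ end of each gene in the direction of transcription (kb). Pale bars are gene bodies, red blocks are peaks within 1 kb of a TSS of the gene, orange blocks are other peaks nearest to the gene and grey blocks are peaks nearest to another gene. *Fosl2* and *Batf* have empty windows, and the 3 blocks of *Fosl1* are grey.

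The 24 peaks comprised 16 whose nearest protein-coding TSS belonged to the AP-1 gene and 8 that were nearer to a neighbour, as the map of the windows shows. Of the 16, 7 were the promoter peaks and 9 lay elsewhere. *Jund* had 4 peaks of its own, *Fos* 3, and *Fosb*, *Junb*, *Atf3* and *Jdp2* 2 each, while *Jun* had its promoter peak alone. Thus 6 of the 7 marked AP-1 genes were the nearest gene of at least 2 peaks, a property of 20.9% of all marked genes. At least 3 peaks were found for 6.94% of marked genes and at least 4 for 2.96%. These shares were not matched for the number of neighbouring genes, to which peaks can also be nearest. Non-coding genes were left out of these counts. With the TSS of any annotated gene, 12 of the 16 peaks stayed nearest to an AP-1 gene, and peaks at *Fos*, *Jund* and *Atf3* went to non-coding genes. The rule of 30 kb left some peaks out by a small margin. The farthest peak inside a window lay 23566 bp from the body of *Jund*, while the nearest peaks outside lay 30383 bp from *Fosb*, at *Vasp*, and 31472 bp from *Fosl1*, at *Cfl1*.

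To show the sequence under the promoter peaks, the 250 bases upstream of the RefSeq start of the gene are given for *Jun* and *Fos*, which a peak covered in full, and for *Junb*, where the peak began downstream of the start. *Batf* is given as a promoter without a peak, with bases that GENCODE counts as transcribed left off its 3′ end. The sequences are from RefSeq on GRCm38.p6, the assembly behind mm10, and run 5′ to 3′ on the strand of the gene. Capitals mark the GC box GGGCGG, the CCAAT box, the letters TGACGT, which are the core of a cyclic AMP response element, and TGACATCA, a relative of the AP-1 motif, on either strand.
*Jun* promoter, chr4:95052223-95052472, minus strand: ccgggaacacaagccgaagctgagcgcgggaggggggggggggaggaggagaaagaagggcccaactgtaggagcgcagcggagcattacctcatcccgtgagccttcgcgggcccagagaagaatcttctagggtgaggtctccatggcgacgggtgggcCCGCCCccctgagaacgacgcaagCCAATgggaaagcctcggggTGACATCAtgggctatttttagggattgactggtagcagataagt
*Fos* promoter, chr12:85473640-85473889, plus strand: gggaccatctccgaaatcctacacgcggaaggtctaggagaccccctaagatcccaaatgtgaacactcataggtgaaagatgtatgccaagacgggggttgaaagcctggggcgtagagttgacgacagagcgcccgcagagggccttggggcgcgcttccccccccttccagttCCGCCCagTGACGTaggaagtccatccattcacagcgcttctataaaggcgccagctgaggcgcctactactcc
*Junb* promoter, chr8:84978749-84978998, minus strand: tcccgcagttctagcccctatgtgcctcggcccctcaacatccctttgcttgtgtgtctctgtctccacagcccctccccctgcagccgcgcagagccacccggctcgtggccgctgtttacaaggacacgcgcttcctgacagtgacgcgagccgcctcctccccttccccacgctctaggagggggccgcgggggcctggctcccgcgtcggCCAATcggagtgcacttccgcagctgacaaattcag
*Batf* promoter, chr12:85686470-85686668, plus strand: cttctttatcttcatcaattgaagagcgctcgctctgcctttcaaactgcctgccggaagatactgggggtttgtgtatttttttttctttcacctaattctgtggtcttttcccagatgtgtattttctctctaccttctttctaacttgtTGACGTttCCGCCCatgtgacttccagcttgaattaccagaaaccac

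In *Jun* a GC box, a CCAAT box and TGACATCA followed each other at -89, -65 and -45 from the start, counted to the leftmost base of each match. *Fos* held a GC box at -74 and TGACGT at -66, and *Junb* a CCAAT box at -36. *Batf* held TGACGT at -98 and a GC box at -90, close together as in *Fos*, although no peak lay on it. Of the 10 AP-1 genes, 9 were matched in the RefSeq promoter table with 11 starts, and *Fosl1* was not. The RefSeq start of *Jund* lies at -1210 bp from its GENCODE TSS. The bases just before the CpG-rich GENCODE TSS of *Jund* were therefore not searched. A GC box stood in the 250 bases before 8 of these 11 starts, compared with 32.7% of 32851 starts of all genes. These 8 belonged to *Atf3*, *Jun*, *Fosl2*, *Fosb*, *Fos*, *Jdp2* and *Batf*. The starts of all genes were not matched for GC or CpG content. A CCAAT box stood before 2 of the 11 (33.8% of all starts). Upstream of none of the 11 was there a full AP-1 motif (4.46% of all starts), a full cyclic AMP response element TGACGTCA (1.55%), an octamer ATTTGCAT (1.60%) or a CArG box (1.47%), the sequence recognised by serum response factor. The letters TGACGT stood before 4 starts, those of *Atf3*, *Batf*, *Fos* and *Jdp2* (6.47% of all starts), and TGACATCA before that of *Jun* (2.93%). These last searches were added after the sequences had been seen.

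*Fos* (ENSMUSG00000021250.13, chr12:85473890-85477273, plus strand) encodes the founding member of its family and is the textbook immediate early gene. Its promoter peak at chr12:85473445-85475910 was 2466 bp wide and reached from -445 to 2020 bp relative to the 5′ end. It covered all 3 annotated TSS and 59.7% of the gene body. Another peak of 930 bp at chr12:85451745-85452674 had its midpoint 21681 bp upstream, and 1 of 1433 bp at chr12:85485452-85486884 lay 12278 bp downstream of the 5′ end. Both lay between protein-coding genes. No other protein-coding gene had a body in the window, and the nearest peak beyond it lay 98419 bp from the gene, at *Tmed10*.

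The *Fos* locus held CArG boxes in both its promoter peak and its downstream peak. They are shown with 10 bases on either side, because signals from growth factors reach *Fos* through serum response factor. Capitals mark the match.
*Fos* promoter peak, chr12:85473571-85473600, plus strand: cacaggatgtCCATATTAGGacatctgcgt
*Fos* downstream peak, chr12:85486104-85486133, plus strand: tccgttctgcCCATATTTGGaaaggcgccg
With positions of matches in peaks counted to the middle of the match, that in the promoter peak stood at -304 from the 5′ end. That in the downstream peak stood 12229 bp past the 5′ end and -49 bp from the midpoint of its peak.

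*Fosb* (ENSMUSG00000003545.3, chr7:19302696-19310051, minus strand), another immediate early Fos gene with a role in neurons, had a promoter peak of 1933 bp at chr7:19308234-19310166. The peak reached from -115 to 1817 bp and covered all 4 annotated TSS and 24.7% of the body. A peak of 1136 bp at chr7:19319645-19320780 lay 10161 bp upstream, between protein-coding genes. Like *Fos*, *Fosb* thus had a peak laid mostly over the start of the body and a separate upstream peak. The promoters of *Ppm1n* and *Rtn2*, which also lie in the window, had none.

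*Fosl1* (ENSMUSG00000024912.6, chr19:5447547-5455946, plus strand) encodes FRA-1, which is prominent in migrating and transformed cells. None of its 3 TSS had a peak within 1 kb, and the nearest peak lay 12439 bp from its 5′ end. The window held 3 peaks, all nearer to neighbours. A peak of 2402 bp and another of 244 bp were nearest to *AI837181*, at 37 and 8457 bp from its TSS, and 1 of 1160 bp lay 50 bp from that of *Fibp*, which encodes a binding protein of fibroblast growth factor. Of the 7 other protein-coding genes with a base in the window, 4 had a marked promoter.

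*Fosl2* (ENSMUSG00000029135.10, chr5:32135801-32157842, plus strand) encodes FRA-2, known from bone and connective tissue. Its window held no peak and no other protein-coding gene. The nearest peak lay 322380 bp from its 5′ end, at *Ppp1cb*, a phosphatase subunit. The stretch without peaks around it ran for 759 kb, and the protein-coding genes that lay wholly within it were *Fosl2* and *Plb1*. Of all gaps between neighbouring peaks, 7.32% were longer, and of all protein-coding genes, 15.0% lay farther from a peak. *Fosl2* had a CpG-rich promoter, and of the 3987 CpG-rich promoters without a mark, whose median distance to a peak was 68346 bp, 13.7% lay farther away. For *Fosl1* the corresponding shares were 58.3% of all genes and 87.4% of the CpG-rich promoters without a mark. Within the Fos family, *Fos* and *Fosb* had peaks over every TSS, and *Fosl2* had none within 300339 bp of its body.

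*Jun* (ENSMUSG00000052684.4, chr4:95049034-95052222, minus strand) encodes c-Jun, the partner common to most AP-1 dimers. Its only peak, of 2473 bp at chr4:95051136-95053608, reached from -1386 to 1086 bp around the single TSS. The midpoint stood 150 bp upstream of that TSS, so this peak lay across the start, whereas the peaks of *Fos*, *Fosb* and *Junb* lay mainly in the gene. It covered 34.1% of the body. The next peak lay 69192 bp away, at *Mysm1*, and no other protein-coding gene had a base in the window.

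*Junb* (ENSMUSG00000052837.6, chr8:84974484-84978718, minus strand) encodes a Jun protein that often opposes c-Jun in cell cycle control. Its promoter peak of 2890 bp at chr8:84975651-84978540 was the widest of the 7. It started 178 bp downstream of the 5′ end, lay wholly within the gene and covered 68.2% of it, including an inner TSS at 84976542. A peak of 1130 bp at chr8:84980402-84981531 lay 2248 bp upstream. The other 4 peaks of the window were nearer to *Rnaseh2a*, a subunit of a ribonuclease, or to *Hook2*, an adaptor of the microtubule system. The pair at *Rnaseh2a* measured 1201 and 2274 bp and the pair at *Hook2* 2036 and 2452 bp. With 6 peaks, *Junb* had the fullest window of the 10 genes, and 4 of the 6 other protein-coding genes in it had a marked promoter.

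*Jund* (ENSMUSG00000071076.6, chr8:70698949-70700616, plus strand) encodes the Jun protein that is present in most cells without stimulation. By its GENCODE TSS it had the most peaks of its own and the narrowest promoter peak. This peak measured 320 bp at chr8:70699198-70699517, from 249 to 568 bp past the annotated TSS and inside the coding exon. A peak of 2341 bp at chr8:70695079-70697419 ended upstream, reaching from -3870 to -1530 bp, and 1778 bp without a peak separated it from the narrow one across the TSS. A peak of 1364 bp lay 7060 bp upstream, and 1 of 267 bp lay 1979 bp past the TSS, just beyond the gene. The remaining peak in the window, 2792 bp wide, lay 555 bp from a TSS of *Lsm4*, a gene of RNA processing.

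No TSS of *Jund* thus lay inside a peak, as in 2349 of the 7836 marked genes. The RefSeq start of *Jund* lies at -1210 bp from that of GENCODE, 320 bp from the wide upstream peak and also outside it. The narrow peaks were nearest, when every annotated gene is considered, to *Gm11175*, an antisense transcript, at 332 and 848 bp. ChIP reads carry no strand, so *Jund* and *Gm11175* cannot be told apart there.

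*Atf3* (ENSMUSG00000026628.13, chr1:191170296-191218039, minus strand), a stress-induced factor that can repress its targets, had a promoter peak of 2872 bp at chr1:191182330-191185201. The peak covered the 2 inner TSS at 191183108 and 191183340, with its midpoint 425 bp from the latter. The RefSeq start at 191183333 also lay in it. The outermost TSS at 191218039 had no peak within 1 kb, and the nearest lay 5614 bp upstream of it. That peak, of 1401 bp at chr1:191223653-191225053, had its midpoint 6314 bp from the *Atf3* TSS and 101 bp from a TSS of the lincRNA *D730003I15Rik*. Marked genes with no peak within 1 kb of their outermost 5′ end numbered 589, or 7.52%. Both *Atf3* peaks held an AP-1 motif, shown here since ATF3 itself pairs with Jun proteins.
*Atf3* inner promoter peak, chr1:191182775-191182801, plus strand: cgccagagtgTGAGTCAcctccgcgca
*Atf3* upstream peak, chr1:191224433-191224459, plus strand: gcggggctgaTGACTCAcgcagtcggg
Capitals mark TGACTCA or its reverse complement TGAGTCA, with 10 bases on either side. The match in the upstream peak stood 93 bp from the midpoint, and that in the promoter peak -977 bp from it.

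*Batf* (ENSMUSG00000034266.6, chr12:85686669-85709087, plus strand) encodes a factor needed in T and B lymphocytes. Like *Fosl2* it had no peak in its window. Its 5′ end lay 59897 bp from the nearest peak, at *Flvcr2*, and 39.4% of all protein-coding genes lay farther from one. The stretch without peaks around it measured 125284 bp, compared with a median gap between neighbouring peaks of 48966 bp.

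*Jdp2* (ENSMUSG00000034271.16, chr12:85599027-85639878, plus strand) encodes a repressor that dimerizes with Jun and occupies AP-1 sites. Its promoter peak of 920 bp at chr12:85599649-85600568 began 622 bp past the outermost 5′ end and covered the TSS at 85600018. Of its 4 TSS, 3 had a peak within 1 kb. A peak of 1239 bp at chr12:85620043-85621281 lay in an intron, 21635 bp from the 5′ end, and was the only distal peak of an AP-1 gene inside the gene itself. The promoter peak held 2 AP-1 motifs and the intronic peak 2 CArG boxes, which are shown because AP-1 dimers recognise the former and serum response factor the latter.
*Jdp2* promoter peak, AP-1, chr12:85600271-85600297, plus strand: tgggatgcctTGACTCAtttgcagaaa
*Jdp2* promoter peak, AP-1, chr12:85600351-85600377, plus strand: atcgactattTGAGTCAgctcccccta
*Jdp2* intronic peak, CArG, chr12:85620468-85620497, plus strand: ttcagagaatCCATTTTTGGaactggggag
*Jdp2* intronic peak, CArG, chr12:85621068-85621097, plus strand: aagcactcttCCTTTATAGGactcgagggc

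*Fos*, *Jdp2* and *Batf* lie in this order and on the same strand within 235198 bp of chromosome 12. *Fos* ends 121753 bp before *Jdp2*, and *Jdp2* ends 46790 bp before *Batf*. The 3 peaks of *Fos* and the 2 of *Jdp2* were followed by none between the end of *Jdp2* and the end of *Batf*. The windows of *Jdp2* and *Batf* overlap by 13210 bp, in which there was no peak, so no peak was counted for both. Marked and unmarked AP-1 genes thus stood side by side.

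**Figure D2:**
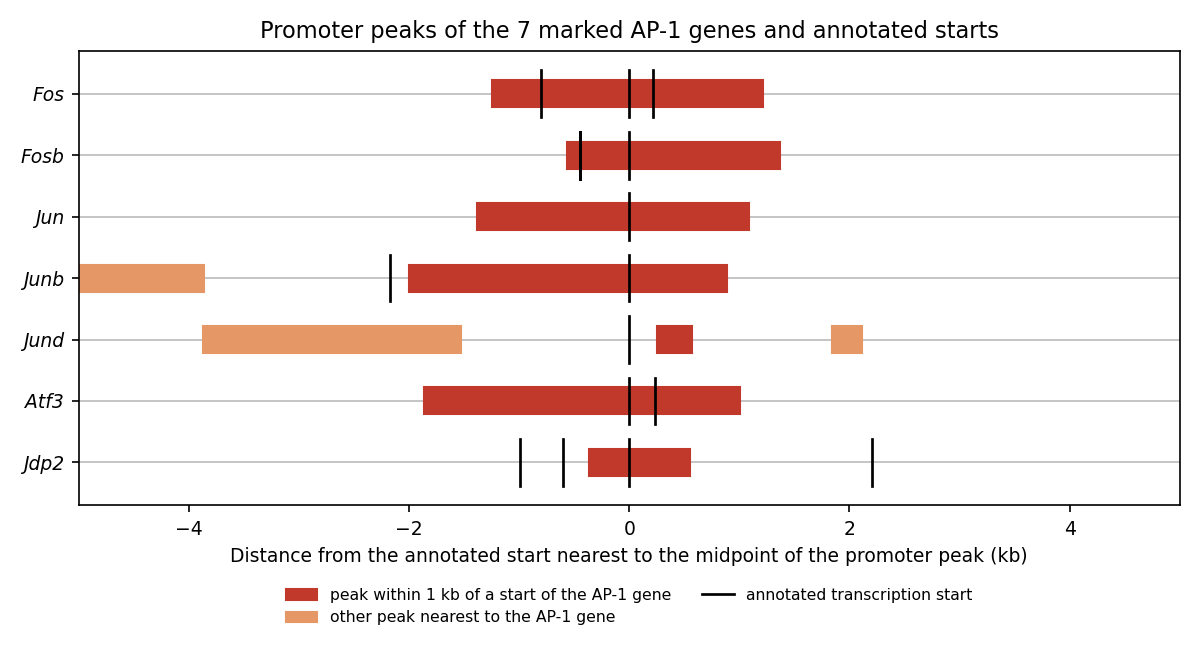
Promoter peaks of the 7 marked AP-1 genes (red) and their other peaks (orange), by distance in kb from the annotated TSS nearest to the midpoint of the promoter peak, in the direction of transcription. Black ticks are annotated TSS, and the outermost TSS of *Atf3* lies off the scale. The peaks of *Fos*, *Fosb*, *Jun*, *Junb*, *Atf3* and *Jdp2* cover a TSS, and that of *Jund* starts 249 bp past it.

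Over the 10 genes GENCODE lists 26 distinct TSS, of which 12 lay inside a peak and 16 within 1 kb of 1. In *Fos*, *Fosb* and *Jun* all TSS were covered, and in *Junb*, *Atf3* and *Jdp2* some were, as drawn in the plot of promoter peaks and starts. The choice of start therefore mattered for single genes. With the outermost 5′ end alone, *Atf3* was no longer marked, and with a TSS required inside a peak, *Jund* was not. *Fos*, *Fosb*, *Jun*, *Junb* and *Jdp2* stayed marked under both choices, and *Fosl1*, *Fosl2* and *Batf* unmarked.

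**Figure D3:**
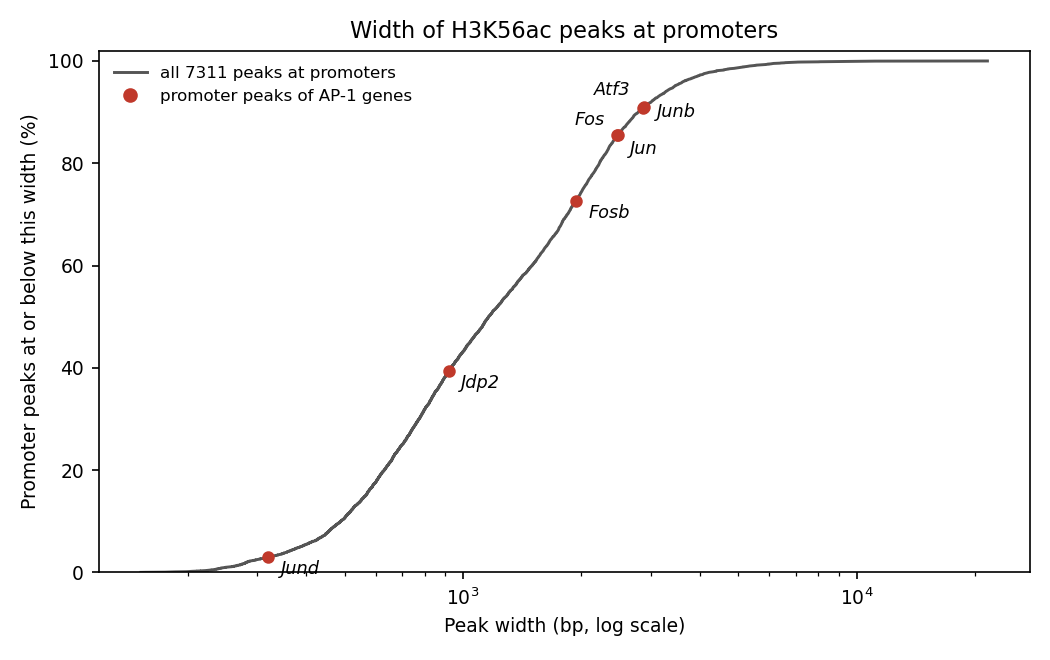
Cumulative share (%) of the 7311 H3K56ac peaks at promoters of protein-coding genes by width in bp on a log axis, with the 7 promoter peaks of AP-1 genes as red points. *Junb* stands at 91.0%, *Atf3* at 90.8%, *Jund* at 2.995% and *Jdp2* at 39.3%. The point of *Jund* is the peak at its GENCODE TSS, not the wider peak near its RefSeq start.

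The promoter peaks of the AP-1 genes had a median width of 2466 bp, ranging from 320 bp in *Jund* to 2890 bp in *Junb*. All 7311 peaks at promoters had a median of 1162 bp with quartiles of 701 and 2020 bp. *Fos*, *Jun*, *Junb* and *Atf3* lay above the upper quartile, at 85.5%, 85.5%, 91.0% and 90.8% of the distribution, and *Fosb* at 72.6%. *Jdp2* and *Jund* lay below the median, at 39.3% and 2.995%. For *Jund* this holds by the GENCODE TSS, since the peak within 1 kb of its RefSeq start measured 2341 bp and stood at 82.8%. The plot of widths shows 5 genes in its upper part and a separate point for *Jdp2* and for *Jund*. The merged set gives no height, and a width can reflect 1 library or several. No peaks of the set were closer than 1000 bp, so that a wide peak can also hold shorter ones joined across a gap.

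Distal peaks, with the midpoint farther than 3 kb from every protein-coding TSS, numbered 8 in the windows. Of these, 6 were nearest to an AP-1 gene: 2 at *Fos* and 1 each at *Fosb*, *Jund*, *Atf3* and *Jdp2*. Apart from the intronic peak of *Jdp2* the other 5 lay outside protein-coding genes, that of *Atf3* 101 bp from a TSS of a lincRNA. The other 2 distal peaks of the windows were the 244-bp peak near *AI837181* and the 2036-bp peak near *Hook2*. *Jun* and *Junb* had no distal peak of their own. With the TSS of all annotated genes counted, non-coding ones included, 6 of the 8 peaks stayed distal.

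Sequence motifs were searched on both strands in the central 400 bp of each peak, taken around its midpoint. In peaks narrower than 400 bp this stretch reached past the edges of the peak. The AP-1 motif, TGACTCA or TGAGTCA, was present in 5 of the 24 peaks, compared with 5.83% of all 11106 peaks. Those nearest to an AP-1 gene were the upstream peak of *Atf3* and the promoter peak of *Jdp2*. The other 3 were nearest to *AI837181*, *Hook2* and *Lsm4*, so most of these peaks were not assigned to an AP-1 gene. Over the whole length of the peaks the motif was present in 9 of 24 (17.1% of all peaks), 5 of them nearest to *Junb*, *Jund*, *Atf3* or *Jdp2*. Whole peaks were not matched for width, and a wider peak offers more sequence to match. The promoter peaks of AP-1 genes had a median of 2466 bp, compared with 1162 bp for all peaks at promoters. The upstream peaks of *Junb* and *Jund* held the following matches, with the motif in capitals.
*Junb* upstream peak, chr8:84981311-84981337, plus strand: gagaccacacTGACTCAcccatgccac
*Jund* upstream peak, chr8:70691416-70691442, plus strand: cagaaggttgTGACTCAccatgtgggt
No peak of *Fos*, *Fosb* or *Jun* held these letters.

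A CArG box stood in the central 400 bp of 3 peaks (1.66% of all peaks) and in the whole length of 5 (6.32%, again not matched for width). Nearest to an AP-1 gene were the promoter and downstream peaks of *Fos*, the promoter peak of *Junb* and the intronic peak of *Jdp2*, and the fifth was nearest to *Hook2*. The match of *Junb* stood 2089 bp past the 5′ end, within the span of the gene but outside its annotated exons.
*Junb* promoter peak, chr8:84976614-84976643, plus strand: ctgaataggcCCATATATGGgcagagcttc
The octamer bound by POU factors such as OCT4 was in no central window (1.52% of all peaks) and in the whole length of 1 peak, at *Fos* (5.12%). TGACGTCA was in none of the peaks at either length (1.11% and 3.31% of all peaks). A GC box stood in the central 400 bp of 11 peaks (30.8%) and a CCAAT box in 6 (38.8%), all 6 of them nearest to an AP-1 gene. These matches describe the letters of the reference and do not show that a factor was bound.

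**Figure D4:**
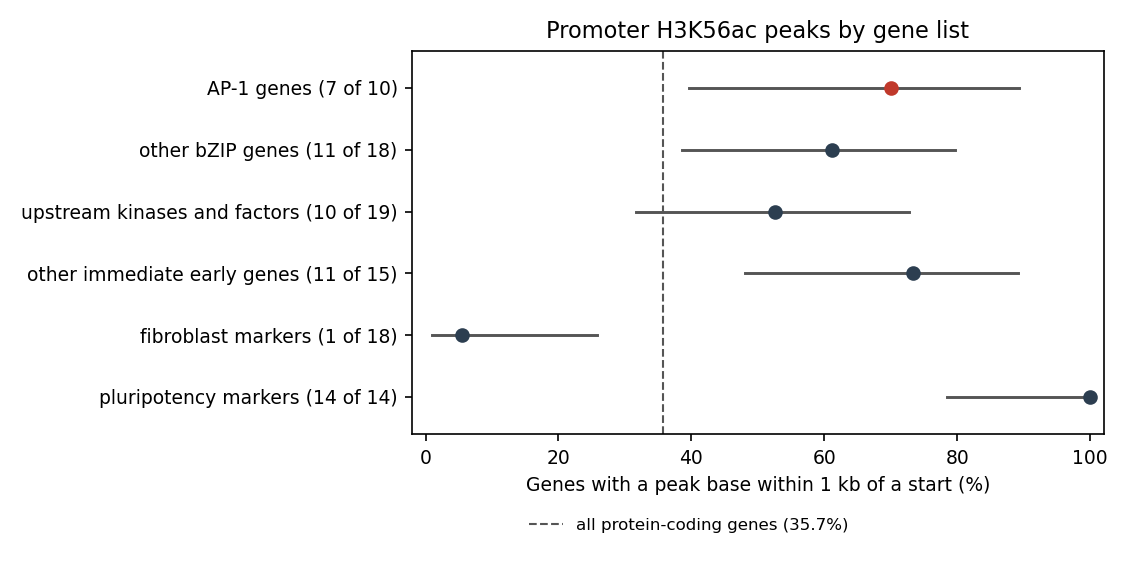
Share of genes with an H3K56ac peak base within 1 kb of a TSS (%) for the AP-1 genes (red) and the other lists, with Wilson 95% intervals as bars. The bars cover counting only and are no test against the line, since the genes were chosen by name. The dashed line is the share of all protein-coding genes, 35.7%. By this rule the AP-1 genes stand at 70.0%, fibroblast markers at 5.56% and pluripotency markers at 100.0%. The lists were not matched for CpG class, and 4 of 18 fibroblast markers, 4 of 14 pluripotency markers and 8 of 10 AP-1 genes were CpG-rich. With the peak midpoint required within 1 kb the pluripotency markers stand at 42.9%, below the AP-1 genes. With a TSS required inside a peak they stand at 11 of 14, above the AP-1 genes at 6 of 10.

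To place the AP-1 genes within their pathway, the same rule was applied to their partners and regulators, as drawn in the plot of gene lists. Marked genes named from these lists were picked after their values were seen. Of all CpG-rich promoters 60.4% were marked, and most genes of these lists were CpG-rich. Among 18 other bZIP genes 16 were CpG-rich, and 9 of these 16 were marked. With the rest included, 11 of the 18 were marked (61.1%). They included *Mafg*, with a peak of 5078 bp, *Ddit3*, *Atf5*, *Atf1* and *Atf2*. Those without a mark included *Atf4*, *Atf7*, *Batf3* and *Cebpb*. *Batf3*, a close relative of *Batf*, was thus also unmarked, with no peak in its window, while *Batf2* had a promoter peak of 1505 bp. The median width of the promoter peaks in this list was 2408.5 bp, near the 2466 bp of the AP-1 genes.

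Of 19 kinases and factors upstream of AP-1, 10 were marked (52.6%), with a median promoter peak of 830 bp. These 10 were among 16 CpG-rich genes of the list, compared with 60.4% marked of all CpG-rich promoters. *Map2k1* and *Map2k2*, kinases of the growth factor pathway, had a promoter peak. The JNK kinases *Mapk8*, *Mapk9* and *Mapk10*, which phosphorylate c-Jun, and their activator *Map2k4* had none, and the other activator *Map2k7* had 1 of 1906 bp. *Srf* itself, its cofactor *Mrtfb* and the ternary complex factor *Elk4* were marked, whereas *Mrtfa*, *Elk1* and *Elk3* were not. Of 15 other immediate early genes, 11 were marked (73.3%), with a median promoter peak of 1465 bp. The widest was that of *Ier2* with 6524 bp, and *Egr2*, *Egr3*, *Ier5* and *Npas4* had none. In this list 11 genes were CpG-rich, and 8 of them were marked.

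The labelled cell type was checked with markers of stem cells and of fibroblasts, the usual feeder cells, since AP-1 genes are also active in fibroblasts. All 14 pluripotency genes were marked, with a median promoter peak of 5194 bp, and *Pou5f1*, *Sox2* and *Nanog* were among them. With the peak midpoint required within 1 kb this held for 6 of them (42.9%), for 7 of 10 AP-1 genes and for no fibroblast gene. The order of the AP-1 and pluripotency genes turned under that rule, by which a wide peak can cover a TSS and still fail. With a TSS required inside a peak the order did not turn, at 11 of 14 pluripotency genes and 6 of 10 AP-1 genes. Of 18 fibroblast genes, *Fn1* alone was marked (5.56%, Wilson 95% interval 0.988 to 25.8%), with a peak of 7077 bp, and 4 had a peak in the window. Only 4 of the 18 were CpG-rich, *Fn1* among them, and of all genes outside that class 14.7% were marked. The low share of fibroblast genes was thus not separated from their CpG class. Of the 14 pluripotency genes 4 were CpG-rich. The collagen genes *Col1a1*, *Col1a2* and *Col3a1* and the receptor gene *Pdgfra* had no peak in their windows. Any share of feeder chromatin in the AP-1 peaks was not tested. The AP-1 genes carried narrower promoter peaks than the pluripotency genes by median, and their widest, in *Junb*, was below that median.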

How the data were processed

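H3K56ac ChIP and input DNA libraries of V6.5 mESCs were grouped by sample title. The authors trimmed reads with Trim Galore, aligned them to mm10 with bowtie keeping reads with a single location, took out duplicates (Picard), called peaks by MACS2 outside ENCODE blacklisted regions and united overlapping peaks by the reduce function of GenomicRanges. In the deposited file no peaks lay closer than 1000 bp, which uniting overlaps alone would not give, and the step behind it is not given in the sources used here. The processing notes also name FastQC, SAMtools and deepTools. The deposited file gives peak positions, printed here counted from 1, and the deposited score column held 1 value, so peaks could not be ranked or filtered by strength. Library depths were not used.

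All 11106 peaks lay within the GRCm38 chromosomes. Genes and TSS were from GENCODE M21. Where a symbol in a gene list occurred more than once, the entry with the lowest gene identifier was kept. Nearest genes were taken from peak midpoints, distal meant farther than 3 kb from every protein-coding TSS, and motifs were exact matches on both strands. The CArG box was read as CC, then A or T in every position, then GG. With 1 merged set and no replicates no test was possible, so shares are given beside all genes or peaks. All AP-1 genes were named, with the nearest gene of each other peak, and from other lists genes that differed from most of the list, some of which are not reported here, with marked genes picked after their values were seen. Members and lists were chosen with earlier results of these data known. Distances, TSS sets, peak widths and motif windows were varied. Python 3.11.15, numpy 2.4.6, scipy 1.17.1 and pandas 2.3.3 were used. As a check of the code alone, peaks and motifs were planted so that they met the rules. The marking rule found 200 of 200 planted genes and the motif search 300 of 300 planted motifs.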

Additional observations from a re-analysis of the deposited data

How the results depend on the processing

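Of 46 alternatives to 13 results, 37 stayed within 1.5 times the count or within 1 SD of the promoter peak widths (999 bp), and 9 moved further. Windows of 100 kb on either side held 52 peaks instead of 24. Requiring distal peaks to lie farther than 10 kb from a TSS left 4 of 8. The AP-1 motif was found in 2 peaks in the central 200 bp, 8 in 1000 bp and 9 in whole peaks, instead of 5 in 400 bp, and the CArG box in 5 whole peaks instead of 3. The motif counts follow from the longer or shorter stretch searched, and the shares of all peaks with the AP-1 motif moved from 5.83% to 2.94%, 14.0% and 17.1%. The number of marked AP-1 genes was 7 in all alternatives but 3, in which it was 6: a TSS inside a peak and peaks of at least 500 bp lost *Jund*, and the 5′ end alone lost *Atf3*. Alternatives chosen after seeing the data were RefSeq starts, which gave 7, and other marking rules for the other lists. With the midpoint within 1 kb, 6 of 14 pluripotency genes instead of 14 and 0 of 18 fibroblast genes instead of 1 were marked, and with a TSS inside a peak 4 of 19 upstream genes instead of 10. Counting the TSS of any annotated gene left 12 of 16 peaks nearest to an AP-1 gene. No paired analysis was possible because the libraries were merged into 1 peak set, and for that reason no library could be left out and no stricter peak score applied. Library depth was not used, so an AP-1 gene without a peak may lie below what these libraries could detect.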
